A study of Danio rerio with 4 samples.

Results

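Transcripts of the proteasome and of the chaperonin CCT were followed in endothelial cells of the posterior cardinal vein, a large trunk vein of the zebrafish embryo, at 24 hours post fertilization. Genes were taken when their Ensembl symbol, case ignored, began with psma, psmb, psmc, psmd, psme, psmg or cct and a digit, or was tcp1, and when they had 10 or more counts summed over the 4 libraries. This gave 45 genes of the 32434 gene rows, from 59 rows that matched by symbol. They comprised 15 genes of the core particle, 19 of the regulatory particle, 7 of the chaperonin, 3 whose symbol begins with psme and 1 assembly chaperone gene. The study compared 2 libraries of ventral cells with 2 libraries of dorsal cells, all from embryos of the line Tg(fli1:gal4;uasKaede). In this line the promoter of the endothelial gene fli1 drives Gal4, which switches on Kaede, a green protein that becomes red under light. One side of the vein was turned red, and cells with red Kaede from 6 embryos per group were sorted. Separate pools of embryos for the libraries of a group are not stated. P-values below therefore rest on a spread between libraries that may be technical.

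The proteasome is the cell's main machine for breaking down proteins tagged with ubiquitin. Its core particle is a barrel of stacked rings: alpha subunits (psma genes) form the gated ends and beta subunits (psmb genes) the inner chamber, where PSMB5, PSMB6 and PSMB7 carry the cutting sites. The regulatory particle caps the barrel, with ATPases (psmc genes) that unfold substrates and non-ATPase subunits (psmd genes) that bind them and remove ubiquitin. CCT, also called TRiC, is a barrel of a different kind, in which TCP1 and the CCT subunits fold newly made proteins, above all actin and tubulin. These roles are known from yeast and mammals. Both machines are present in nearly every cell and are needed in larger amounts where protein turnover or synthesis is high.

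Ventral libraries 1 and 2 held 108405 and 79527 gene counts, and dorsal libraries 1 and 2 held 115876 and 51376. Values are given as CPM, which is counts per 1000000 gene counts of the library. Summed CPM of 14 matched pan-endothelial markers was 1208 and 1144 on the ventral side against 388 and 487 on the dorsal side, with ERG at 0 in all of them, and cdh5, a gene of endothelial junctions, had 2 and 1 counts in ventral against 4 and 0 in dorsal libraries. Red blood cell genes other than globins (12 markers, all counted) lay far above the endothelial markers. They stood at 10627 and 9745 CPM in ventral and 14308 and 10394 CPM in dorsal libraries. Epidermal markers stood at 3016 and 1081 CPM against 492 and 681 CPM, and myeloid markers at 36.9 and 0 CPM against 8.63 and 350.4 CPM. The epidermal genes krt4, cyt1l and cldni had 58, 65 and 14 counts in ventral library 1 and 0 elsewhere, while krt8, krt18a.1 and epcam were counted in every library. Of the 18 myeloid counts in dorsal library 2, 17 were of lyz. The libraries thus hold red blood cell RNA beside endothelial RNA. RNA of epidermal markers was counted in every library, with the highest sum in ventral library 1. Levels of the proteasome and CCT genes given below can therefore not be assigned to endothelial cells alone. A lower value of any transcript can mean fewer cells of a type or less RNA per cell, which cannot be told apart here. Gene counts per ERCC spike-in count, a measure of the RNA put in, stood at 11.2 and 9.68 on the ventral side against 12.5 and 4.68 on the dorsal side, so dorsal library 2 was the poorest. Spike-ins with the highest counts are saturated, and 9 genes lay above 900 counts in every library, near 1024, which no count passed. Both make these ratios approximate, and the 9 genes also enter the totals behind CPM.

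Chaperonin transcripts were the most abundant of the set. CEL-Seq reads 1 tag at the 3' end of each transcript, so CPM needs no division by length, although a gene whose 3' end is missing from the annotation is undercounted. All 7 chaperonin genes were among the 8 highest of the 45 by mean CPM, from CCT4 at 809 ± 158 CPM (SD over 4 libraries) down to CCT8 at 344 ± 98.4 CPM. The mean per chaperonin gene was 503 CPM, against 192 CPM per core particle gene and 161 CPM per regulatory particle gene. Within each library a chaperonin gene held on average 2.31 and 2.99 times the CPM of a core particle gene in the ventral libraries, and 2.81 and 2.37 times in the dorsal ones. In every library this ratio was above 2 over the rows that passed the minimum. Those rows leave out cct2, with 3 counts. They also hold psma2a and a second PSMA6 row as further core particle genes of low counts. Each of these choices raises the ratio. The minimum also leaves out the core particle rows PSMB8, PSMB9, PSMB10, psma6l, psmb11b, psmb12 and psmb13a, with 0 counts, which lowers it. The ratio above 2 therefore holds for this choice of rows. PSMA1 and a second CCT2 entry of the name table matched no row, and a ratio per subunit was not computed.

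**Figure D1:**
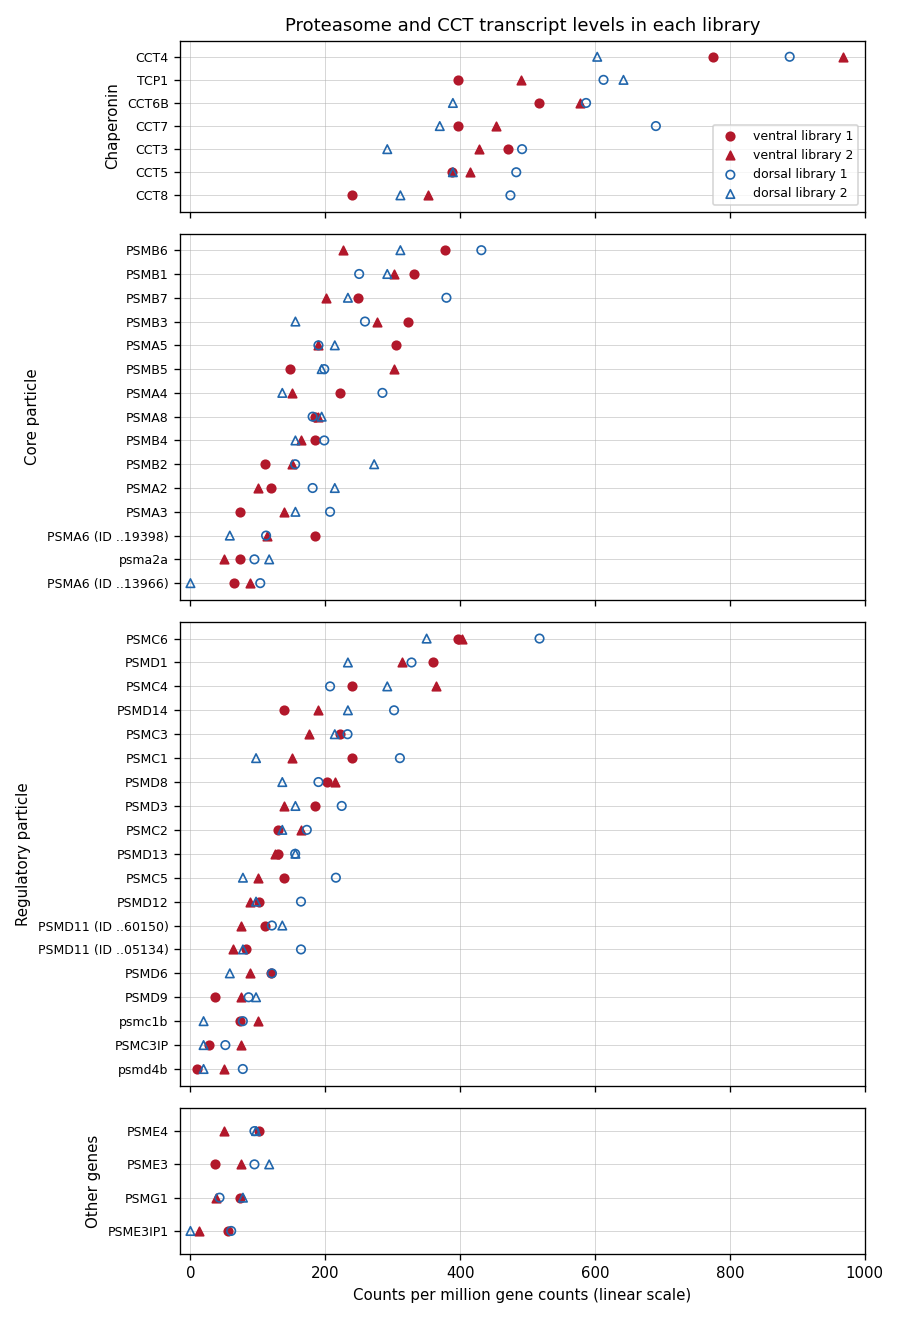
Level of each of the 45 genes, in CPM on a linear axis, with 1 point per library and ventral libraries filled, dorsal libraries open. Chaperonin genes lie furthest right, with CCT4 between 603 and 968 CPM, and filled and open points are intermixed for most genes.

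CCT4 led its class in ventral library 1, ventral library 2 and dorsal library 1, and TCP1 did in dorsal library 2, at 642 CPM against 603 CPM for CCT4. Below CCT4, the means of TCP1, CCT6B, CCT7, CCT3 and CCT5 ran from 536 to 419 CPM, and neighbours in this order differed by less than 1 SD over the libraries. CCT6B is the symbol of the name table used, and RefSeq's table of zebrafish genes lists cct6a and no gene of that name. In the regulatory particle the ATPase gene PSMC6 was highest in each of the 4 libraries, at 417 ± 71.2 CPM, followed by the scaffold gene PSMD1 at 309 ± 53.7 and the ATPase gene PSMC4 at 276 ± 68.7 CPM. In the core particle the leading genes all encode beta subunits: PSMB6 at 337 ± 88.6, PSMB1 at 294 ± 33.8, PSMB7 at 266 ± 78.5 and PSMB3 at 254 ± 70.6 CPM. The ranges of these beta genes over the libraries overlapped. A beta subunit gene averaged 244 CPM and an alpha subunit gene 147 CPM, and the summed beta to alpha ratio was 1.41 and 1.59 on the ventral side against 1.38 and 1.48 on the dorsal side. The alpha mean is over 8 rows, where PSMA2 with psma2a and the PSMA6 pair take 2 rows each, which lowers it. PSMA1 matched no row and is missing from the mean and the ratio. Across the 45 genes the rank order of CPM was shared between libraries, with Spearman's rho from 0.82 to 0.914 over the 6 library pairs, a description in which the points share the counting and depth of the same libraries.

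Core particle counts came from constitutive subunits. The catalytic genes PSMB5, PSMB6 and PSMB7 gave 297 counts over the 4 libraries. The 6 matched rows for beta subunits of the immunoproteasome or thymus-type family, PSMB8, PSMB9, PSMB10, psmb11b, psmb12 and psmb13a, gave 0 counts in each library. A count of 0 allows up to 8.45 CPM per gene over the 4 libraries, from a floor of 3 counts, and covers counting error only. PSME1 and PSME2, which form the interferon-induced activator of the core particle, gave 1 and 0 counts. Of the other rows below the minimum, psma6l gave 0, a second PSME4 row 1, cct2 3, PSMG2 4, PSMD5 7 and PSMD10 9 counts. Just inside the minimum stood PSME3IP1 with 14, psmd4b with 15 and PSMC3IP with 16 counts. PSME3IP1 and PSMC3IP match by spelling but encode binding partners of a subunit and not subunits. PSMD9, counted with the regulatory particle by its symbol, encodes a chaperone for the assembly of that particle in yeast and mammals. PSMA1, PSMD2, PSMD4, PSMD7, PSMG3 and a second CCT2 entry of the name table were matched to no row and are not analysed here.

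None of the 45 genes passed the threshold between ventral and dorsal cells in edgeR's quasi-likelihood test, with p adjusted by the Benjamini-Hochberg method over all 4163 genes with 10 or more counts and a threshold of 0.05. The background was also empty, at 0.00% higher and 0.00% lower, with 260 genes higher and 119 lower at an unadjusted p under 0.05, 9.10% of all genes, and 0 of the 45 among them. The lowest adjusted p of a member was 0.583. DESeq2 and voom also called 0 of the 45, and over all genes DESeq2 called 0 and voom 11, all higher in ventral. At an unadjusted p under 0.05 DESeq2 had 60 genes higher and 7 lower and no member, and voom 222 higher and 133 lower (8.53%), with PSMA3 and PSMD14 among the lower ones. With edgeR's own expression filter 6 of 1399 genes (0.429%) were called higher, and 0 of the 33 members it keeps.

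The log2 fold, ventral over dorsal and scaled with TMM factors, lay below 0 in 28 of the 45 genes and above 0 in 17, with a median of -0.16, beside 48.9% below 0 and a median of 0.019 over all genes tested and 49.2% below 0 among the 3057 genes in the same range of summed counts. Scaled to the ERCC counts the medians were 0.044 for the 45 genes and 0.28 for all genes. CPM was lower in both ventral than in both dorsal libraries for 10 of the 45 genes, where the background is 17.7% of all genes and 18.1% of those in the same range, and higher in both for 4, where it is 20.0% and 19.8%. Median log2 folds were -0.044 for the core particle, -0.16 for the regulatory particle and -0.14 for the chaperonin, with folds from -0.84 to 0.72, from -1.04 to 0.60 and from -0.51 to 0.19. The narrower range of chaperonin folds goes with higher counts and also with fewer genes, 7 against 15 and 19. Standard errors of the chaperonin folds had a median of 0.27, against 0.42 and 0.48 for the core and regulatory particle.

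**Figure D2:**
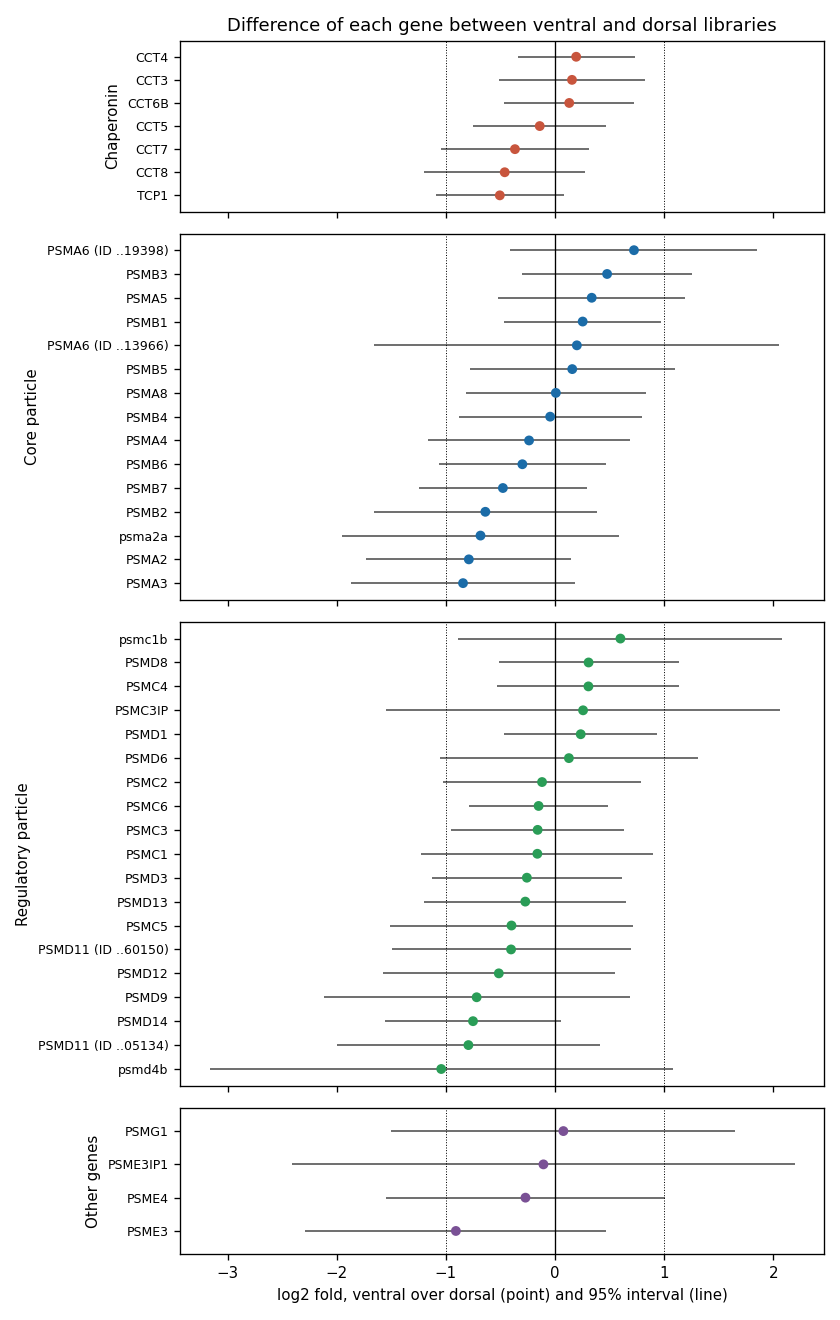
Log2 fold of each gene, ventral over dorsal (points), with its 95% interval from edgeR's fit (lines), and dotted lines at a 2-fold change either way. Every interval includes 0, and 10 of the 45 intervals lie wholly between the dotted lines.

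For 10 genes the 95% interval lay wholly within a 2-fold change either way, beside 9.37% of all genes and 7.33% of genes in the same range of summed counts. Genes of that range were mostly less abundant, with a median of 79.2 CPM against 176 CPM for the 45 genes. Their median SE was 0.62 against 0.41, and intervals narrow with higher counts, so these shares do not compare stability at like counts. These were CCT3, CCT4, CCT5, CCT6B, PSMA8, PSMB1, PSMB4, PSMC3, PSMC6 and PSMD1. The closest interval was that of CCT4, from a 0.789-fold to a 1.66-fold level. The intervals of the other 35 genes reached past a 2-fold change in at least 1 direction.

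Among the alpha subunits, PSMA3 and PSMA2 had the lowest log2 folds. PSMA3 (ENSDARG00000086618) stood at 73.8 and 138 CPM in ventral and 207 and 156 CPM in dorsal libraries, which is a log2 fold of -0.84 with an SE of 0.46 (adjusted p = 0.651 in edgeR). PSMA2 (ENSDARG00000035679) stood at 120 and 101 CPM in ventral and 181 and 214 CPM in dorsal libraries, at -0.79 ± 0.42 (adjusted p = 0.641, edgeR). In both genes the ventral libraries lay below the dorsal ones without overlap, on 8 to 24 counts per library. The paralogue psma2a, with 4 to 11 counts, lay the same way at 73.8 and 50.3 CPM against 94.9 and 117 CPM, and tags shared by the copies may have been lost or split. PSMA6 (ENSDARG00000019398) had the highest fold of the class, at 184 and 113 CPM in ventral and 112 and 58.4 CPM in dorsal libraries, a log2 fold of 0.72 ± 0.51 (adjusted p = 0.757, edgeR). Its groups nearly touched, with ventral library 2 and dorsal library 1 about equal. The second PSMA6 row had 7 and 7 counts in ventral against 12 and 0 in dorsal libraries, and both rows together stood at 249 and 201 CPM against 216 and 58.4 CPM, which overlap. PSMA8, listed by RefSeq with the synonym psma7, was the most even gene in CPM. It stood at 184 and 189 CPM in ventral and 181 and 195 CPM in dorsal libraries. This rests on 20 and 15 ventral and 21 and 10 dorsal counts, and CPM leaves out the TMM factors used for the folds.

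Among the beta subunits the catalytic genes showed no common difference. PSMB6, the caspase-like subunit, stood at 378 and 226 CPM in ventral and 431 and 311 CPM in dorsal libraries (log2 fold -0.30 ± 0.34). PSMB7, the trypsin-like subunit, stood at 249 and 201 CPM in ventral and 380 and 234 CPM in dorsal libraries (-0.48 ± 0.35), and PSMB5, the chymotrypsin-like subunit, at 148 and 302 CPM in ventral and 198 and 195 CPM in dorsal libraries (0.16 ± 0.42). All 3 overlapped between the groups, with the ventral libraries of PSMB5 on either side of the dorsal ones. The structural genes PSMB1 and PSMB3 lay higher in both ventral libraries. PSMB1 stood at 332 and 302 CPM in ventral and 250.3 and 292 CPM in dorsal libraries (0.25 ± 0.32), and PSMB3 at 323 and 277 CPM in ventral and 259 and 156 CPM in dorsal libraries (0.48 ± 0.35). The gap between the groups was 10 CPM for PSMB1 and 18 CPM for PSMB3, less than the gap between the libraries of either group. The structural gene PSMB2 lay the other way without overlap in CPM, at 111 and 151 CPM in ventral and 155 and 273 CPM in dorsal libraries (-0.64 ± 0.46). CPM leaves out the TMM factors used for the folds, 1.05 for dorsal library 1 and 0.937 for dorsal library 2. Whether the groups of PSMB1 and PSMB2 overlap therefore depends on the scaling. Adjusted p for these 6 beta genes lay between 0.784 and 0.961 in edgeR's test.

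In the regulatory particle PSMD14 had the smallest p of the 45 genes. PSMD14 (ENSDARG00000063100), the deubiquitinase that strips ubiquitin from substrates, stood at 138 and 189 CPM in ventral and 302 and 234 CPM in dorsal libraries, a log2 fold of -0.75 ± 0.36 (SE; unadjusted p = 0.063 and adjusted p = 0.583, edgeR). Both ventral libraries lay below both dorsal ones. PSMD11 (ENSDARG00000005134), which joins parts of the lid, stood at 83 and 62.9 CPM in ventral and 164 and 77.9 CPM in dorsal libraries (-0.79 ± 0.54, adjusted p = 0.749, edgeR), with the groups overlapping. Without dorsal library 1 its log2 fold was -0.15. The second PSMD11 row (ENSDARG00000060150) stood at 111 and 75.4 CPM in ventral and 121 and 136 CPM in dorsal libraries (-0.40 ± 0.49, adjusted p = 0.909, edgeR), without overlap. Both rows together stood at 194 and 138 CPM in ventral and 285 and 214 CPM in dorsal libraries, also without overlap, and tags shared by the copies may have been lost or split. The ubiquitin receptor gene psmd4b had the lowest fold of all 45, -1.04 ± 0.95 (adjusted p = 0.842, edgeR), on 1 and 4 ventral and 9 and 1 dorsal counts, so it rests on dorsal library 1. Without that library its log2 fold was 0.36.

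PSMC6, PSMD1 and PSMC4, the most abundant genes of the regulatory particle, overlapped between the groups. PSMC6 stood at 397 and 402 CPM in ventral and 518 and 350.4 CPM in dorsal libraries (log2 fold -0.15 ± 0.28), with both ventral libraries between the dorsal ones. PSMD1 stood at 360 and 314 CPM in ventral and 328 and 234 CPM in dorsal libraries (0.24 ± 0.31), and PSMC4 at 240 and 365 CPM in ventral and 207 and 292 CPM in dorsal libraries (0.31 ± 0.37). Of the 11 psmd genes, 8 had a log2 fold below 0, and of the 8 psmc genes, PSMC3IP included, 5 did. The summed psmc to psmd ratio was 0.994 and 1.08 on the ventral side against 0.924 and 0.861 on the dorsal side, without overlap, a ratio within each library that no scaling can move. It was 1.04 ± 0.061 in ventral and 0.893 ± 0.045 in dorsal libraries (SD, n = 2 each), and with 2 libraries a side no exact test of it can reach the threshold. For scale, CPM of single genes separated without overlap for 20.0% of all genes with ventral higher and 17.7% with ventral lower. No such share was computed for ratios. In dorsal library 2 the ratio rests on 62 psmc and 72 psmd counts, and in dorsal library 1 on 207 and 224. Ventral libraries 1 and 2 held 159 and 122 psmc and 160 and 113 psmd counts. The counting error of the ratio was not computed, and an SD of 2 libraries is itself imprecise. The beta to alpha ratio and the ratios between the machines overlapped between the sides.

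In the chaperonin TCP1, the subunit that gave the complex its first name, had the lowest log2 fold. TCP1 (ENSDARG00000017891) stood at 397 and 490 CPM in ventral and 613 and 642 CPM in dorsal libraries, a log2 fold of -0.51 with an SE of 0.26 (adjusted p = 0.634 in edgeR). Its ventral libraries lay below the dorsal ones without overlap, which held for 1 of the 7 chaperonin genes, beside 17.7% of all genes. A share of 1 in 7 is near that background, and the difference of TCP1 from the other subunits was not tested. TCP1 made up 12.5% and 13.3% of ventral and 14.5% and 21.4% of dorsal chaperonin counts, and the dorsal library 2 value rests on 33 of 154 counts.

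In CPM the other 6 chaperonin genes were all lower in dorsal library 2 than in dorsal library 1, as were 60.1% of all genes tested. CPM leaves out the TMM factors, which would bring these libraries closer. CCT8 stood at 240 and 352 CPM in ventral and 475 and 311 CPM in dorsal libraries (log2 fold -0.46 ± 0.33, adjusted p = 0.781, edgeR), and CCT7 at 397 and 453 CPM in ventral and 690 and 370 CPM in dorsal libraries (-0.37 ± 0.30, adjusted p = 0.832, edgeR). Both were highest in dorsal library 1 and overlapped between the groups. CCT4 stood at 775 and 968 CPM in ventral and 889 and 603 CPM in dorsal libraries (0.19 ± 0.24), and CCT6B at 517 and 578 CPM in ventral and 587 and 389 CPM in dorsal libraries (0.13 ± 0.27). For these the dorsal libraries enclosed 1 or both ventral ones. Without dorsal library 1 the log2 fold of CCT7 was 0.11, and without dorsal library 2 that of CCT6B was -0.049.

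Outside the main classes counts were low. PSME3, a nuclear activator of the core particle, had 4 and 6 counts in ventral against 11 and 6 in dorsal libraries, or 36.9 and 75.4 CPM against 94.9 and 117 CPM, without overlap and at a log2 fold of -0.91 ± 0.62 (adjusted p = 0.749, edgeR). PSME4 (ENSDARG00000018742), which encodes the activator PA200, had 11 and 4 counts in ventral against 11 and 5 in dorsal libraries (-0.27 ± 0.57). The assembly chaperone gene PSMG1 had 8 and 3 counts in ventral against 5 and 4 in dorsal libraries (0.077 ± 0.71), and PSME3IP1 had 6 and 1 against 7 and 0 (-0.11 ± 1.03). The last 3 genes overlapped between the groups, and their intervals reached past a 2-fold change in both directions.

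Summed by class in CPM, no difference between the sides exceeded the spread between the dorsal libraries, and dorsal libraries 1 and 2 enclosed the ventral ones in 2 of the 3 sums. Core particle counts summed to 2952 and 2641 CPM in ventral and 3228 and 2706 CPM in dorsal libraries, means of 2796 ± 220.1 and 2967 ± 369 CPM (SD, n = 2 each). Regulatory particle counts summed to 2943 and 2955 CPM in ventral and 3719 and 2608 CPM in dorsal libraries, means of 2949 ± 8.70 and 3164 ± 786 CPM. Chaperonin counts summed to 3183 and 3684 CPM in ventral and 4229 and 2998 CPM in dorsal libraries, means of 3433 ± 355 and 3613 ± 871 CPM. The ventral to dorsal ratio was 0.943 for the core particle (0.818 to 1.09 over the 4 pairs of libraries), 0.932 for the regulatory particle (0.791 to 1.13) and 0.95 for the chaperonin (0.753 to 1.23). Each ratio passed 1 when dorsal library 1 was left out or when the sums were scaled to the spike-ins. In CPM, 31 of the 45 genes were higher in dorsal library 1 than in dorsal library 2, where the background is 60.1% of genes. Dorsal library 1 stood 1.19-fold, 1.43-fold and 1.41-fold above dorsal library 2 in the core particle, regulatory particle and chaperonin sums. These folds are in CPM of total gene counts. Dividing by the TMM factors, 1.05 for dorsal library 1 and 0.937 for dorsal library 2, would bring these libraries closer. So would leaving the 9 genes near 1024 counts out of the totals, as they take a larger share of dorsal library 2. The red blood cell markers given above were also highest in dorsal library 1, and their part in these sums was not tested. The pan-endothelial sum was 2.69-fold higher in ventral libraries, while the class sums differed by less than the libraries of 1 side.

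**Figure D3:**
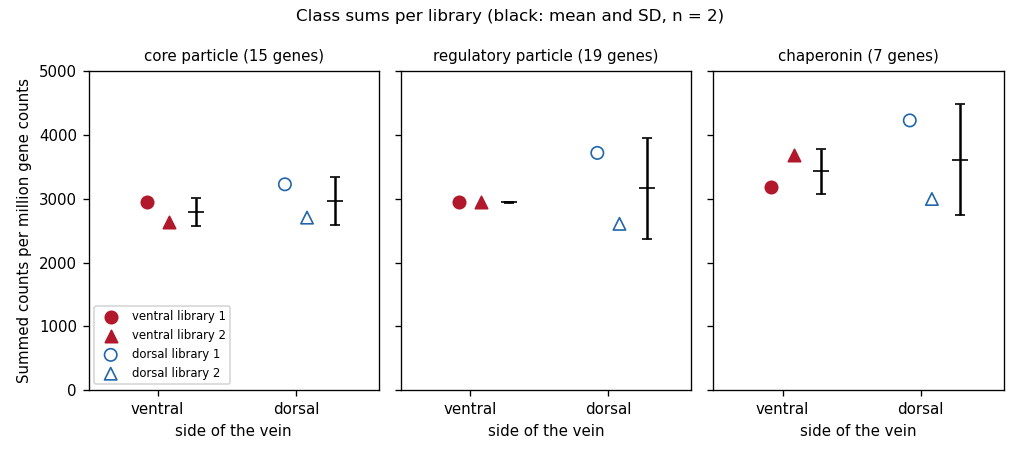
Summed CPM of the 15 core particle, 19 regulatory particle and 7 chaperonin genes, 1 point per library, with the mean and SD of each side in black. The dorsal points are further apart than the means of the 2 sides in each panel.

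Ratios between the machines within a library do not depend on scaling. Regulatory per core particle counts were 0.997 and 1.12 on the ventral side, against 1.15 and 0.964 on the dorsal side. Chaperonin per core particle counts were 1.08 and 1.4 on the ventral side against 1.31 and 1.11 on the dorsal side, and chaperonin per regulatory particle counts 1.08 and 1.25 against 1.14 and 1.15. All 3 ratios overlapped between the sides. The share of the 45 genes in all gene counts was 0.934% and 0.946% on the ventral side and 1.15% and 0.86% on the dorsal side.

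Each pair of libraries was scaled to the summed counts of those of the 45 genes with 10 or more counts in the pair. The counts of single genes then varied between libraries about as much as counting molecules alone gives. Chi-square per degree of freedom, which is near 1 for counting noise alone, was 0.924 within the ventral side and 1.02 within the dorsal side, over 42 genes with 10 or more counts in the pair. It lay between 0.8 and 1.28 in the 4 pairs of libraries from different sides, over 37 to 44 genes. Genes in the same range of summed counts gave 1.71 within the ventral side, 1.54 within the dorsal side and 1.6 to 2.66 between sides. The values are a description without a test, and genes of 1 library are not independent.

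**Figure D4:**
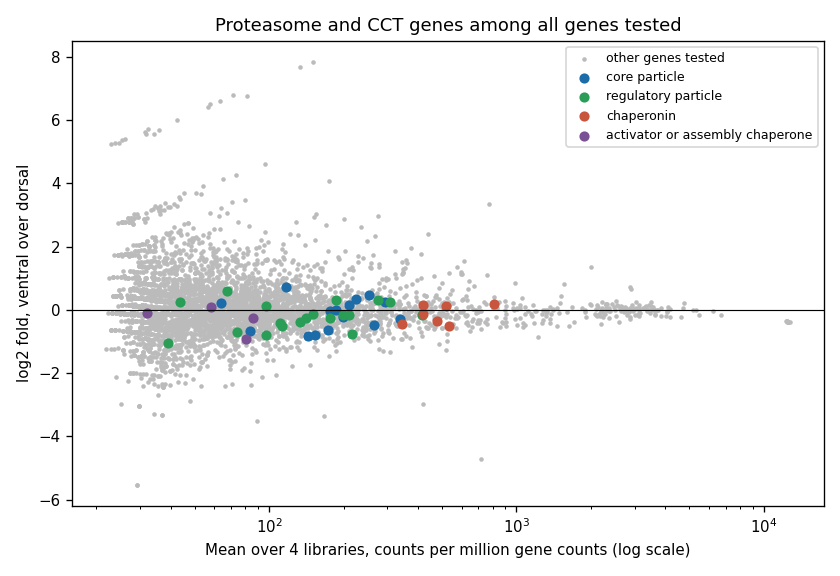
Log2 fold, ventral over dorsal, against mean CPM on a log axis for the 4163 genes tested, with proteasome and chaperonin genes coloured. The coloured points lie between -1.04 and 0.72, inside the cloud of genes of like abundance.

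Genes that work with the proteasome and chaperonin were described from 4 lists, and none of their members passed edgeR's test in either direction. Of 10 proteasome partners tested, 5 had a log2 fold above 0 and 5 below. POMP, which matures the core particle, stood at 323 and 340 CPM in ventral and 371 and 234 CPM in dorsal libraries (0.085 ± 0.32), and AKIRIN2, which carries proteasomes into the nucleus, at 268 and 151 CPM against 233 and 311 CPM (-0.30 ± 0.40). USP14, a deubiquitinase bound to the regulatory particle, had the smallest p of that list, at 46.1 and 113 CPM in ventral and 164 and 195 CPM in dorsal libraries (-1.19 ± 0.53, adjusted p = 0.536, edgeR). Its groups did not overlap, which held in this direction for 2 of the 10 partners, near the background of 17.7% of all genes.

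Of 21 ubiquitin pathway genes tested, 14 lay above 0 and 7 below, with the ubiquitin fusion gene rps27a at 0.033 ± 0.15. Without overlap in CPM, 5 of the 21 lay higher in ventral libraries and 1 lower, where the background is 20.0% and 17.7% of all genes. The smallest p of that list belonged to the conjugation factor ube2v1 (1.28 ± 0.63, adjusted p = 0.574, edgeR) and the shuttle receptor gene RAD23B (1.18 ± 0.65, adjusted p = 0.641, edgeR). Of 9 cofactors of the chaperonin tested, 6 lay above 0 and 3 below, with the prefoldin genes PFDN4 at -0.29 ± 0.35, PFDN1 at -0.081 ± 0.47, VBP1 at 0.57 ± 0.54 and PFDN6 at 0.47 ± 0.55. Of 12 other chaperones tested, 5 lay above 0 and 7 below, among them the abundant HSPA8 at -0.15 ± 0.18 and HSP90AB1 at 0.13 ± 0.15, and the cochaperones HSPA4 at -0.74 ± 0.51 and STIP1 at -0.60 ± 0.56. Median log2 folds of the 4 lists were 0.021, 0.049, 0.15 and -0.12, beside 0.019 over all genes tested.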

How the data were processed

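RNA with ERCC spike-ins was made into CEL-Seq libraries with a molecular identifier in each primer, per the labels' protocols. CASAVA 1.8, Bowtie2 2.1.0, HTSeq 0.5.4p3 and build Zv9 are named, with no role or order, in the submitters' processing notes. The deposited table holds counts per gene. No count passed 1024, the number of identifiers of 5 bases, so values were read as identifier counts, an inference. The highest count of a member was 103. The 5 rows that name no gene (96.4% to 97.4% of each column) were left out. Strand handling: not given in the sources used here. The row of multiply aligned reads is 0. A name table gave symbols for 20769 of 32434 genes.

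edgeR 4.0.16 in R 4.3.3 compared ventral with dorsal libraries by the quasi-likelihood F test with TMM factors (0.937 to 1.05), on genes with 10 or more summed counts. This filter ignores the groups and keeps every member, and edgeR's own filter, which keeps 33 of the 45, was an alternative. CPM uses total gene counts. Standard errors and 95% intervals come from the fit's weights and posterior quasi-dispersion. The fit was also run on simulated data whose spread was taken from these same 4 libraries. Such a run cannot show whether that spread is right. Alternatives were DESeq2 1.42.0, voom in limma 3.58.1, other scalings and filters, a correction for repeated identifiers and leaving out each library. Genes given with values were every called member, the 4 most abundant and the 3 with the largest absolute log2 fold per class, all psme and psmg members, TCP1 and, per partner list, the 2 most abundant and the 2 with the smallest p. One gene of the ubiquitin list that this rule takes is not reported here. PSMB2, PSMB5, PSMA8, psma2a and the second rows of PSMA6 and PSMD11 were added after their values were seen. The members and lists were chosen with earlier results of these data known.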

Additional observations from a re-analysis of the deposited data

How the results depend on the processing

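No member was called under any of the 13 alternatives. Among those that keep all 4 libraries the lowest adjusted p of a member was 0.455, in edgeR's test with its own expression filter. Over all genes the count called higher was 0 in the test reported, and 6 with edgeR's expression filter, 43 with no filter (4 lower), 5 with RLE size factors, 4 with total gene count scaling and 11 with voom. It was 0 with ERCC scaling, the identifier correction, DESeq2 and without genes near the ceiling. Leaving out 1 library gave 0 to 83 genes higher and 0 to 19 lower, the largest counts without dorsal library 2 and, at 32 and 16, without dorsal library 1. The log2 ratio of summed CPM ranged from -0.29 to 0.13 for all 45 genes when 1 library was left out, from -0.21 to 0.048 for the core particle, from -0.33 to 0.18 for the regulatory particle and from -0.30 to 0.20 for the chaperonin, the highest values without dorsal library 1. With ERCC scaling the core particle ratio stood at 0.14, against -0.085 in the CPM reported, and its median log2 fold at 0.19. The median of the core particle was -0.21 without dorsal library 2. Without PSMC3IP and without TCP1, alternatives chosen after the data were seen, the regulatory particle ratio was -0.11 and that of the chaperonin 0.0021.

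Of 280 log2 folds of named genes under alternatives, 16 changed sign, and none of them was called. With ERCC scaling PSMC6 stood at 0.044, PSME4 at 0.0093 and PSME3IP1 at 0.064, and with DESeq2 PSMG1 stood at -0.056 and PSME3IP1 at 0.14. Leaving out 1 library at a time gave log2 folds on both sides of 0 for PSMB6 (-0.75 to 0.0089), PSMC6 (-0.32 to 0.11), PSMC4 (-0.048 to 0.59), psmd4b (-2.46 to 0.36), CCT6B (-0.049 to 0.41), CCT7 (-0.65 to 0.11), PSME4 (-0.90 to 0.11), PSMG1 (-0.52 to 0.47) and PSME3IP1 (-1.56 to 4.60, the upper value against a dorsal count of 0). The cause was not tested. No paired analysis was possible because the labels give the libraries of the 2 sides no shared replicate number. The standard error of a member's log2 fold had a median of 0.41, and was 0.95 for psmd4b and 1.03 for PSME3IP1, where single libraries held 0 or 1 counts.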
